A study of Homo sapiens with 6 samples.

Results

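ATF4 and 9 genes of its stress response were examined across 6 cultures of MDA-MB-231 cells, a human line of triple-negative, mesenchymal breast cancer. The 10 genes were chosen by name from the 20042 genes of the count table and fall into 4 transcription factors (ATF4, ATF5, ATF3 and DDIT3) and 6 target genes (DDIT4, TRIB3, CHAC1, ASNS, SESN2 and VLDLR). All 10 had an entry and all passed the filter on low counts. In 3 cultures, labelled wild type, the cells were transfected with a control small interfering RNA (siCTRL), and in the other 3, labelled as ERBBride knock down, with siRNA-1 against ERBBride, which the series title describes as a long non-coding RNA linked to EGFR stability. Small interfering RNAs are short duplexes that direct the cutting of matching transcripts. No other treatment, dose or time is stated in the labels, and both groups share the line and the transfection. The cultures of a group are called biological replicates, but how they were separated is not stated, and the p-values therefore reflect only the variation among these 6 samples, which may be technical. Only 1 siRNA against ERBBride was compared, and the level of ERBBride itself was not analysed here, so its knockdown was not checked.

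The libraries held 12813706 to 15014434 counts, and the 10 genes held 1645 (ATF3) to 22811 (ATF4) counts over the 6 libraries. Levels are counts-per-million (CPM) with TMM scaling, a correction for library composition, and a gene was said to have risen or fallen where its adjusted p was under 0.05 in the quasi-likelihood test of edgeR over all 12440 genes tested. Of the cell line's low or absent markers, PGR held 0 counts, ESR1 6 and PTPRC 37 over the 6 libraries, while CDH1 (113), PECAM1 (486) and EPCAM (890) were low but present. A count of 0 allows up to 0.233 CPM in a library (3 counts). CDH1, PECAM1 and EPCAM fell in siRNA-1 cells, and their part in the results was not tested. The mesenchymal and basal markers VIM, CD44, EGFR, AXL and MSN lay between 195 and 2652 CPM in both group means, and all 5 fell. The control library siCTRL 2 stood apart: set against the other controls over 9839 genes, its log2 differences had an SD of 0.229, where those of siCTRL 1 and siCTRL 3 had 0.143 and 0.155. For some results the value without it, or its distance from the other controls, is also given.

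ATF4 is a basic leucine zipper transcription factor and the main effector of the integrated stress response. In this response any of 4 kinases phosphorylates the initiation factor eIF2, which lowers general translation while the ATF4 messenger RNA, with its short upstream reading frames, is translated more. ATF4 then pairs with C/EBP factors and induces genes for amino acid uptake, amino acid synthesis, tRNA charging, redox defence and, under lasting stress, cell death. Because this control acts largely on translation, an RNA level does not give the ATF4 protein level.

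Of the 10 genes, 7 fell and 1 rose in siRNA-1 cells, where 31.0% of all tested genes fell and 31.5% rose. The falls took in ATF4 and all 6 genes grouped as targets, and the rise was that of ATF5. ATF3 and DDIT3 did not pass the test. The grouping is by role, and genes grouped as factors can themselves be induced downstream of ATF4, as ATF3 and DDIT3 are. The genes grouped as targets are thus not all the genes here that lie under ATF4. The fall of all 6 is therefore not a fall of every such gene. The median log2 fold change of the 10 genes was -0.78, against 0.0059 over all tested genes, and that of the 6 targets was -1.86. The groups did not overlap in 8 of the 10 genes, where 67.6% of tested genes showed no overlap.

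Among the transcription factors, ATF4 (ENSG00000128272, plus strand, chr22:39519695-39522685 on GRCh38) stood at 310, 363 and 315 CPM in siCTRL 1 to 3 and at 217, 217 and 203 CPM in siRNA-1 replicates 1 to 3. Every siRNA-1 library lay below every control, and siCTRL 2 was the highest. The group means were 329 ± 29.4 and 212 ± 8.19 CPM (SD, n = 3), a 1.55-fold fall (log2 fold change -0.63, SE 0.067, adjusted p = 6.79e-06, edgeR). ATF5 (ENSG00000169136, plus strand, chr19:49928702-49933935), a related factor whose own translation is also raised by eIF2 phosphorylation, went the other way. Its levels were 17.9, 11.8 and 17.5 CPM in the controls and 34.6, 38.1 and 32.4 CPM in siRNA-1 cells. The groups did not overlap, and the lowest control was again siCTRL 2. ATF5 rose 2.22-fold (log2 fold change 1.15, SE 0.133, adjusted p = 1.42e-05), and without siCTRL 2 the log2 fold change was 0.97.

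ATF3 (ENSG00000162772, plus strand, chr1:212565334-212620777), an early stress factor induced downstream of ATF4, had 19.6, 22.0 and 18.5 CPM in the controls and 19.4, 18.9 and 18.0 CPM in siRNA-1 cells. These ranges overlap, and the log2 fold change was -0.09 (SE 0.094, adjusted p = 0.409). DDIT3 (ENSG00000175197, minus strand, chr12:57516588-57521737) encodes CHOP, the factor that links lasting stress to cell death. It had 27.0, 20.9 and 27.0 CPM in the controls and 27.5, 23.4 and 24.5 CPM in siRNA-1 cells, again with overlap. Its log2 fold change was 0.01 (SE 0.110, adjusted p = 0.961), and it was -0.12 without siCTRL 2, the library with its lowest level (adjusted p = 0.215).

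**Figure D1:**
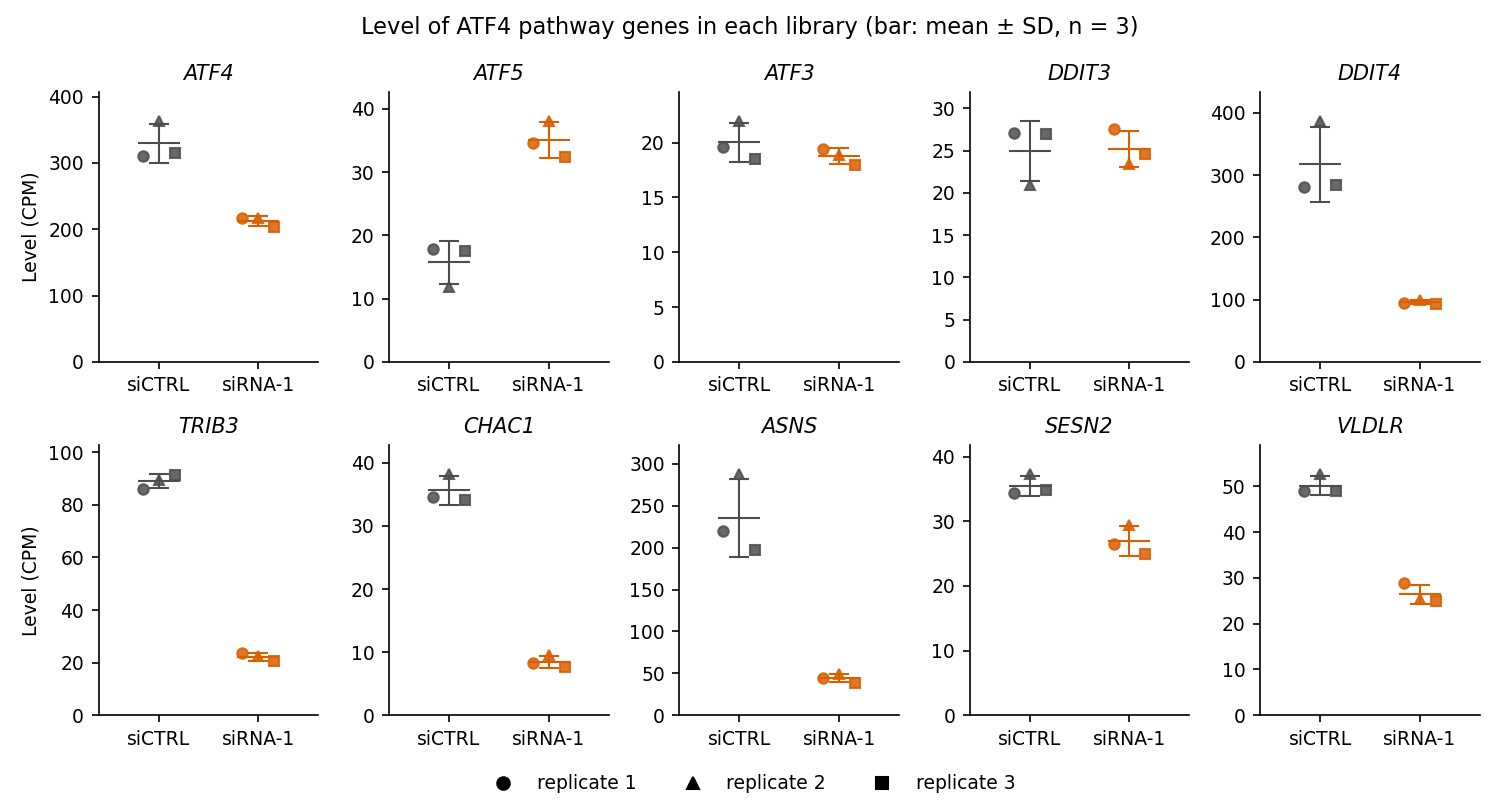
Level of each gene in CPM (linear axis from 0) in every library, with controls in grey and siRNA-1 libraries in orange. Horizontal bars are group means and error bars the SD (n = 3). In the panels of the 6 target genes and of ATF4 all siRNA-1 points lie below all controls, ATF5 shows the reverse, and ATF3 and DDIT3 overlap.

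The largest fall among the targets was that of ASNS, the asparagine synthetase gene (ENSG00000070669, minus strand, chr7:97852118-97872542). ASNS had 220, 288 and 198 CPM in the controls and 44.8, 48.6 and 38.8 CPM in siRNA-1 cells, so that the highest siRNA-1 library was far below the lowest control. It fell 5.33-fold (log2 fold change -2.42, SE 0.129, adjusted p = 2.86e-08), and only 56 of the 12440 tested genes had a lower log2 fold change. CHAC1 (ENSG00000128965, plus strand, chr15:40952962-40956519) encodes an enzyme that breaks down glutathione. It stood at 34.6, 38.2 and 34.1 CPM in the controls and at 8.24, 9.47 and 7.63 CPM in siRNA-1 cells, which were 112 to 143 counts per library. CHAC1 fell 4.21-fold, with group means of 35.6 ± 2.24 and 8.45 ± 0.937 CPM (log2 fold change -2.07, SE 0.103, adjusted p = 1.66e-08).

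TRIB3 (ENSG00000101255, plus strand, chr20:362835-397559) encodes a pseudokinase that binds ATF4 and DDIT3 proteins and dampens their activity. Its levels were 86.2, 89.5 and 91.4 CPM in the controls and 23.7, 22.4 and 20.5 CPM in siRNA-1 cells. These are tight groups with a wide gap, and TRIB3 had the smallest adjusted p of the 10 genes (4.01-fold lower, log2 fold change -2.00, SE 0.071, adjusted p = 1.63e-09). DDIT4 (ENSG00000168209, plus strand, chr10:72273920-72276036) encodes REDD1, an inhibitor of the growth kinase complex mTORC1. DDIT4 had 281, 387 and 284 CPM in the controls and 94.7, 99.6 and 93.8 CPM in siRNA-1 cells. It fell 3.31-fold (log2 fold change -1.72, SE 0.108, adjusted p = 9.82e-08), and by 1.57 on the log2 scale without siCTRL 2, its highest library.

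The remaining targets moved less. VLDLR (ENSG00000147852, plus strand, chr9:2621834-2660053), which encodes a receptor for lipoproteins and reelin, had 48.9, 52.7 and 48.9 CPM in the controls and 28.8, 25.4 and 24.9 CPM in siRNA-1 cells. It fell 1.90-fold (log2 fold change -0.93, SE 0.078, adjusted p = 1.09e-06). SESN2 (ENSG00000130766, plus strand, chr1:28259527-28282491) encodes sestrin 2, a leucine sensor that restrains mTORC1. Its levels were 34.4, 37.3 and 34.8 CPM in the controls and 26.5, 29.5 and 24.9 CPM in siRNA-1 cells. The groups stayed apart, with the smallest fall of the targets at 1.32-fold (log2 fold change -0.40, SE 0.084, adjusted p = 0.00143). The log2 fold changes of these 6 targets thus ran from -2.42 to -0.40, and 5 of them lay below the value of ATF4 itself while SESN2 lay above it.

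**Figure D2:**
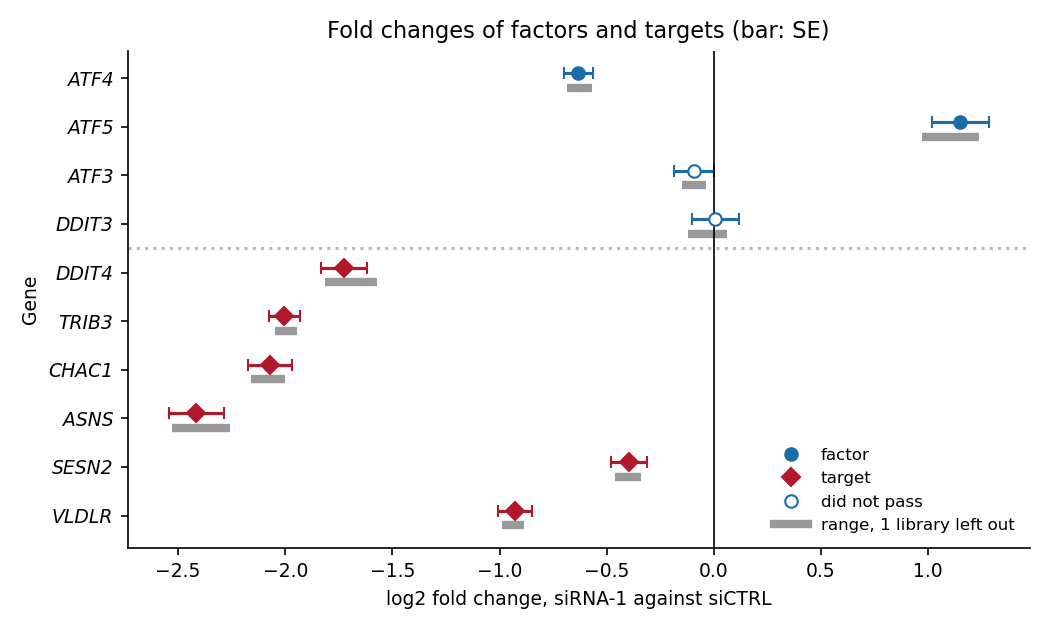
Log2 fold change of siRNA-1 against siCTRL for the 4 factors (circles) and 6 targets (diamonds), with the SE as error bars and open symbols for genes that did not pass the test. Grey bars show the range of the estimate when 1 library at a time was left out, which crosses 0 for DDIT3 and for no other gene shown.

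Promoter sequence was examined because 6 targets fell together. ATF4 with a C/EBP partner binds a composite element whose core reads TGATGNAA, and dimers of ATF and CREB factors bind elements such as TGACGTNA. Both strands of the RefSeq promoter windows on GRCh38.p14, of 300 bases (250 before and 50 after each annotated start), were searched, and all 10 genes matched an entry, with 18 windows between them. The composite core was found in ASNS, CHAC1 and ATF3, and in 4.46% of the 27305 genes with a window. TGACGTNA was found in 0 of the 10 and in 3.63% of all genes, so no matches overlapped in these genes. The sites are shown in their 30-base surroundings, written along the gene, with the 8 bases of the core in capitals. Beside them stand the 10 genes of the wider lists that hold the core and are described by name further on. The 7 that fell come first, then PPP1R15B and CREB3L2, which rose, and SLC7A1, which did not pass. The core is also in SLC3A2, SLC1A5, GARS1, NARS1 and TARS1, which fell, and in CARS1, HERPUD1 and CREB5, which did not pass. FGF21 holds it too but was not tested. Genes were named largely by smallest p, so the share that fell among those shown is no result.
ASNS: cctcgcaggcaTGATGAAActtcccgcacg
CHAC1: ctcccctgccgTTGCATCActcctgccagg
ATF3: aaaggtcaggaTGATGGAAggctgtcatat
BCAT1: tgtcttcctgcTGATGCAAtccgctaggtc
IARS1: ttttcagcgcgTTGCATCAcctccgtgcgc
AARS1: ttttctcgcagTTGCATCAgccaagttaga
SLC1A4: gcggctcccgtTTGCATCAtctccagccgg
MARS1: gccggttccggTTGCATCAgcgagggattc
CEBPG: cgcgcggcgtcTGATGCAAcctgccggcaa
JDP2: atagccggggcTGATGCAAcccgtcccgcc
PPP1R15B: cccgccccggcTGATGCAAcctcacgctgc
CREB3L2: tacctgggagcTGATGAAAaatgcagaatc
SLC7A1: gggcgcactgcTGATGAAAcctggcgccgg

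The ASNS window lies on the minus strand at chr7:97872458-97872487, with the core starting 68 bases before the start of transcription (first base at -68). The CHAC1 window (plus strand, chr15:40953251-40953280) holds the core on the opposite strand, where it reads TGATGCAA, from -209. The ATF3 window (plus strand, chr1:212565205-212565234) precedes the more upstream of the starts listed for that gene and holds the core from -191. ASNS and CHAC1 fell and ATF3 did not pass, although all 3 hold the core. The BCAT1 (chr12:24949131-24949160) and IARS1 (chr9:92293692-92293721) windows are on the minus strand, as is that of AARS1 (chr16:70289675-70289704), while that of SLC1A4 (chr2:64989381-64989410) is on the plus strand. Those of MARS1 (chr12:57488053-57488082), CEBPG (chr19:33374060-33374089) and JDP2 (chr14:75427995-75428024) are on the plus strand, and those of PPP1R15B (chr1:204412026-204412055), CREB3L2 (chr7:137932954-137932983) and SLC7A1 (chr13:29595663-29595692) on the minus strand. In IARS1, AARS1, SLC1A4 and MARS1 the core is again on the opposite strand and reads TGATGCAA. Among the tested genes that have a promoter window, 34.9% of the 278 with the core fell and 29.5% rose, against 30.8% and 32.1% of the 9854 without it. The 278 include the tested genes named above, which were chosen with earlier results of these data known. These shares are therefore no independent comparison. For TRIB3, DDIT4, SESN2, VLDLR, ATF4, ATF5 and DDIT3 the letters are not in these windows, which says nothing of elements elsewhere.

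The controls also differed among themselves. Of the 7 genes that fell, 6 lay higher in siCTRL 2 than in both other controls, and TRIB3 lay between them. Over all 12440 tested genes, 5126 lay above both. Against the mean of siCTRL 1 and 3, siCTRL 2 differed on the log2 scale by 0.46 for ASNS, 0.45 for DDIT4 and 0.22 for ATF4, and by -0.58 for ATF5 and -0.37 for DDIT3. The median of this difference was 0.15 over the 7 genes that fell and 0.0028 over all tested genes. The falls were called with siCTRL 2 among the controls, so the 2 medians are not independent of that call. In siRNA-1 libraries ASNS ranged from 38.8 to 48.6 CPM and ATF5 from 32.4 to 38.1 CPM. Without siCTRL 2 the same direction and call held for all 10 genes except the sign of DDIT3, with log2 fold changes of -2.26 for ASNS, -0.57 for ATF4 and -0.37 for SESN2.

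**Figure D3:**
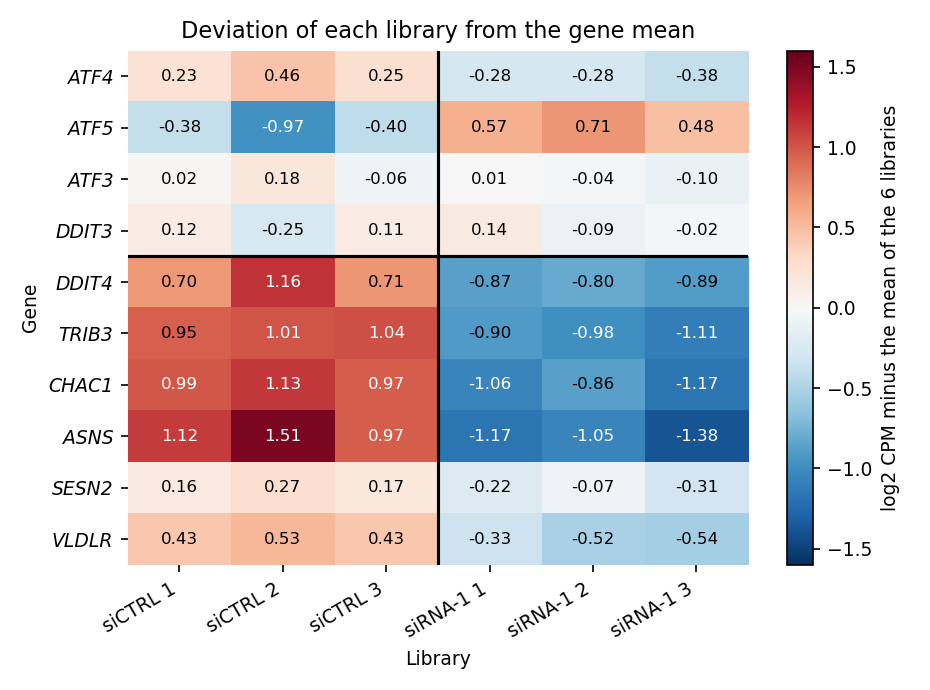
Log2 CPM of each gene in each library minus the mean over the 6 libraries (printed in each cell, red above and blue below that mean). The column of siCTRL 2 holds the highest ASNS, DDIT4 and ATF4 values and the lowest ATF5 value of the 6 libraries.

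Per kilobase of merged exons (RPKM), DDIT4 (154 ± 29.2 RPKM) and ATF4 (131 ± 11.7 RPKM) had the highest control levels of the 10 genes. Their spreads overlapped, and their order within each library was not compared. ASNS followed at 52.8 ± 10.5 RPKM and TRIB3 at 25.9 ± 0.770 RPKM. DDIT3 (19.1 ± 2.70 RPKM) and CHAC1 (17.3 ± 1.09 RPKM) came next with overlapping spreads, then SESN2 at 10.3 ± 0.449 RPKM. VLDLR (5.37 ± 0.231 RPKM), ATF5 (5.33 ± 1.15 RPKM) and ATF3 (4.96 ± 0.440 RPKM) shared the lowest level. In siRNA-1 cells ATF4 led at 84.5 ± 3.26 RPKM and DDIT4 followed at 46.7 ± 1.53 RPKM. There DDIT3 (19.2 ± 1.64 RPKM) stood above ATF5 (11.9 ± 0.965 RPKM), ASNS (9.89 ± 1.11 RPKM) and CHAC1 (4.11 ± 0.455 RPKM). The order of ASNS and DDIT3 was thus exchanged between the groups.

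Ratios of counts within a library do not depend on scaling. The log2 ratio of ATF5 to ATF4 was -4.12, -4.94 and -4.17 in the controls and -2.65, -2.51 and -2.65 in siRNA-1 cells. The groups did not overlap and their means differed by 1.81 (exact permutation test, two-sided, p = 0.1, the smallest that 3 against 3 allows). The log2 ratio of ASNS to ATF4 went from -0.50 ± 0.168 to -2.28 ± 0.114, and that of CHAC1 to ATF4 from -3.21 ± 0.0420 to -4.66 ± 0.121 (SD, n = 3). The ratio of ATF3 to ATF4 moved upwards, from -4.04 ± 0.0519 to -3.50 ± 0.0200.

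The genes with profiles nearest to that of ATF4 were found by the root mean square difference of centred log2 CPM over the 6 libraries, among 11474 other genes. WDR47, POT1, a telomere end-binding protein gene, ARHGAP31, HEATR6 and the chromatin remodelling gene SMARCE1 were nearest, with differences of 0.033 to 0.042 and log2 fold changes of -0.66 to -0.59. For ASNS the nearest were TMEM154, the kinase gene PIK3CD, XAF1, MSN, which encodes moesin, and the amino acid transporter gene SLC38A4, with differences of 0.16 to 0.19. CHAC1 ranked 8, TRIB3 39 and DDIT4 121 by nearness to ASNS. The points share 6 libraries in 2 groups, so this likeness mostly restates the size of the group difference.

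Upstream of ATF4, 0 of the 4 eIF2 kinase genes fell and 3 rose, where 31.0% of all tested genes fell and 31.5% rose. EIF2AK1, the kinase HRI that senses haem and mitochondrial stress, rose 1.42-fold, with group means of 165 ± 3.30 and 233 ± 8.50 CPM (log2 fold change 0.50, SE 0.053, adjusted p = 6.14e-06). EIF2AK4, the amino acid sensor GCN2, rose 1.13-fold (adjusted p = 0.0105), and EIF2AK2, the double-stranded RNA sensor PKR, rose 1.10-fold (adjusted p = 0.0342). The EIF2AK2 call was lost when any library other than siCTRL 2 was left out (adjusted p = 0.0591 to 0.131), with the replicate block (0.0608), in the DESeq2 Wald test (0.0847) and at a mean of 100 counts or more (0.0947). EIF2AK3, the endoplasmic reticulum kinase PERK, had a log2 fold change of 0.12 that missed the threshold (adjusted p = 0.306), but passed without siCTRL 2 (0.18, adjusted p = 0.0479). These are RNA levels and give no measure of kinase activity or eIF2 phosphorylation.

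The phosphatase that reverses eIF2 phosphorylation is built from a catalytic subunit and a targeting subunit. The constitutive targeting subunit PPP1R15B rose 1.58-fold from 109 ± 3.22 to 172 ± 5.83 CPM (adjusted p = 8.86e-07). PPP1R15A, the stress-induced subunit GADD34 and itself an ATF4 target, had 222, 143 and 224 CPM in the controls and 202, 213 and 197 CPM in siRNA-1 cells. With all libraries its log2 fold change was 0.06 and it missed the threshold (adjusted p = 0.723), and without siCTRL 2, where it was lowest, it fell (-0.14, adjusted p = 0.00400). The catalytic genes PPP1CA (log2 fold change 0.47) and PPP1CC (0.36) rose. PPP1CB fell (-0.18, adjusted p = 0.0252), a call lost when any library other than siCTRL 2 was left out (adjusted p = 0.0775 to 0.106). Of the 8 subunit genes of eIF2 and its exchange factor eIF2B, 3 rose, 3 fell and 2 did not pass. For so few genes this is near the 31.5% of all tested genes that rose and the 31.0% that fell. The rises were those of EIF2B5 (1.74-fold), EIF2S1, the subunit that is phosphorylated (1.30-fold), and EIF2B4, and the falls those of EIF2S3 (log2 fold change -0.58), EIF2B2 and EIF2B3.

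Among dimer partners and turnover factors of ATF4, 8 of 9 were tested, of which 3 fell and 2 rose. For so few genes this is near the shares of all tested genes, of which 31.0% fell and 31.5% rose. JDP2, a repressive bZIP factor, fell 2.09-fold from 37.5 ± 8.93 to 17.9 ± 3.48 CPM (adjusted p = 0.000172), and the C/EBP genes CEBPD (2.00-fold) and CEBPG (1.30-fold) also fell. On the log2 scale siCTRL 2 lay above the mean of the other controls by 0.56 for JDP2, 0.75 for CEBPD and 0.28 for CEBPG. The rises were those of BTRC (1.68-fold) and FBXW11 (1.48-fold), which encode the F-box proteins that mark phosphorylated ATF4 for degradation. Of 12 other ATF and CREB family genes, 3 fell, 4 rose and 5 did not pass, again near those shares. CREB3L1, a membrane-bound factor of the secretory pathway, fell 3.09-fold from 58.9 ± 10.7 to 19.0 ± 1.08 CPM, and ATF7 and CREB1 fell by less. For CREB3L1 siCTRL 2 lay 0.42 above the mean of the other controls on the log2 scale. CREM rose 1.76-fold, CREB3L2 rose 1.24-fold, and ATF6 and ATF6B, the endoplasmic reticulum stress sensors, rose by less.

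Among genes listed here as other targets of ATF4, 37 of 47 tested in 4 lists were lower and 1 was higher. Their median log2 fold change was -0.61. PPP1R15A, counted above with the phosphatase, is not among them and missed the threshold with all libraries. In all, 51 of the 91 tested genes around ATF4 fell and 18 rose, where 31.0% of all tested genes fell and 31.5% rose. These shares are the background for the counts of each list. The lists were drawn up with earlier results of these data known, so these counts are no independent evidence of the direction. Amino acid transporter genes fell at 8 of 9 members (median log2 fold change -0.81). SLC7A11, the cystine importer, fell 2.72-fold with control levels of 196 to 226 CPM and siRNA-1 levels of 74.7 to 78.4 CPM. SLC7A5, the leucine transporter, fell 2.24-fold, and SLC1A4, a transporter of serine and alanine, fell 2.76-fold. The arginine transporter SLC7A1 was the exception, at a log2 fold change of 0.08 (adjusted p = 0.229).

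Genes of amino acid synthesis and one-carbon metabolism fell at 9 of the 11 members tested, with 1 rise and a median log2 fold change of -0.92. BCAT1, the branched-chain aminotransferase, fell 3.43-fold from 183 ± 16.2 to 53.4 ± 2.63 CPM, and PCK2, the mitochondrial phosphoenolpyruvate carboxykinase, fell 3.29-fold. PSAT1, of serine synthesis, fell 3.75-fold from 322 ± 60.6 to 85.7 ± 4.56 CPM. PHGDH, the first enzyme of serine synthesis, had the lowest log2 fold change of the list at 16.4-fold lower (-4.03, SE 0.257). Its levels were 11.8 to 19.5 CPM in the controls and 0.699 to 1.09 CPM in siRNA-1 cells. The latter were only 10, 14 and 16 counts, so the size of this fall is loosely fixed. On the log2 scale siCTRL 2 lay above the mean of the other controls by 0.60 for PHGDH and 0.45 for PSAT1. ALDH18A1, of proline synthesis, was the 1 rise (log2 fold change 0.46). CBS had 0 counts in every library and ALDH1L2 too few to test.

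Genes of tRNA charging and export fell by smaller amounts, at 11 of 13 members with 0 rises (median log2 fold change -0.45). IARS1, the isoleucine enzyme, fell 2.00-fold from 617 ± 61.9 to 309 ± 2.76 CPM, WARS1, of tryptophan, fell 1.68-fold and AARS1, of alanine, fell 1.45-fold. The composite core was in the promoter window of 7 of the 11 members of this list that have one, and of 4 of 8 transporter genes, 1 of 8 synthesis genes and 2 of 9 genes of the last list. In that list, of secreted and signalling outputs, 9 of the 14 members tested fell, with 0 rises and a median log2 fold change of -0.90. VEGFA, the angiogenic growth factor gene, fell 2.64-fold from 528 ± 35.2 to 200 ± 5.67 CPM, TNFRSF10B, the death receptor gene DR5, fell 2.59-fold and NDRG1, a stress-responsive growth regulator gene, fell 2.36-fold. All 13 genes of tRNA charging and export lay higher in siCTRL 2 than in both other controls (median log2 difference 0.14), as did 10 of the 11 synthesis genes (0.15) and 8 of the 9 transporter genes (0.19). The outputs were divided, with 7 of the 14 tested above both and 6 below both (0.058), and over all 12440 tested genes 5126 lay above both and 5096 below both. Whether what set siCTRL 2 apart bears on these falls was not tested. Without that library 54 of the 91 genes fell and 22 rose. In the same fit 4306 of all 12562 tested genes fell and 4329 rose, so calls were more frequent over all genes too.

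**Figure D4:**
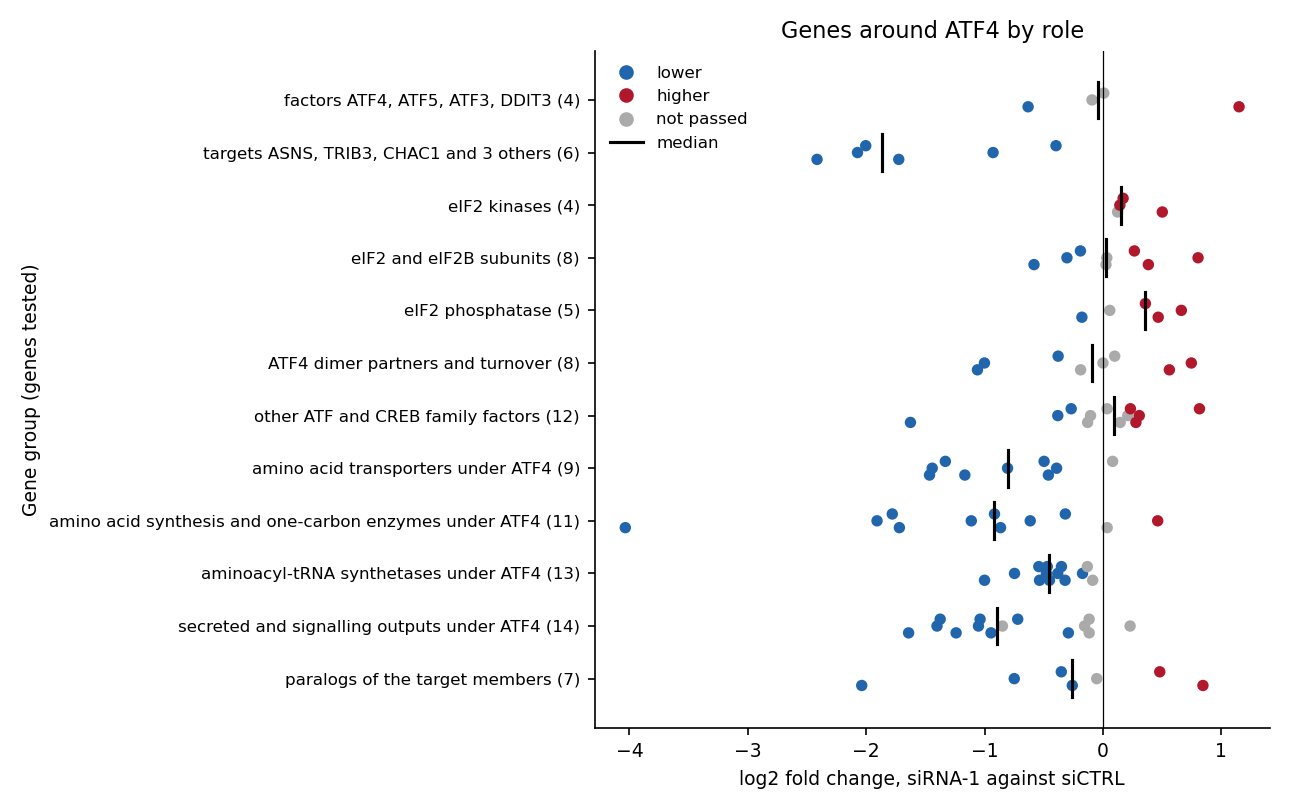
Log2 fold change of each tested gene around ATF4, by role, with the number tested in brackets. Blue points fell, red points rose, grey points did not pass and black bars are medians. The list medians of the 5 target groups, from -1.86 to -0.45, lie left of those of the eIF2 kinases (0.16) and phosphatase subunits (0.36).

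Paralogs of the target genes did not all follow them. TRIB2 fell 1.68-fold and TRIB1 1.28-fold, beside the 4.01-fold fall of TRIB3. Of the sestrins, SESN1, a p53 target, rose 1.80-fold from 8.90 ± 0.275 to 16.0 ± 1.68 CPM, whereas SESN3, a FOXO target, fell 4.11-fold from 13.6 ± 3.94 to 3.29 ± 0.226 CPM, a larger estimate than that of SESN2. For SESN3 siCTRL 2 lay 0.65 above the mean of the other controls on the log2 scale. CHAC2, whose enzyme degrades glutathione more slowly, had 6.81 ± 0.686 and 6.59 ± 0.639 CPM, a log2 fold change of -0.05 that missed the threshold (adjusted p = 0.769). LRP8, the other reelin receptor beside VLDLR, fell 1.20-fold (adjusted p = 0.00661). DDIT4L held 66 counts in all and was not tested. Differences between paralogs were not tested.

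The 7-base sequence GCTCACT was looked for in the longest annotated 3' untranslated region of each gene (GENCODE 29), because it was picked in earlier work on these counts from genes that fell. It was present once each in CHAC1 and TRIB3 and in none of the other 8 genes. It was in 36.3% of the 1005 genes that fell at least 2-fold and in 17.2% of the other 11256, which describes the genes it was picked from and is no test. The sequence of siRNA-1 is not stated in the labels, so these 7 bases were not compared with it. ASNS and DDIT4, which also fell more than 2-fold, do not carry it in these regions. The sites are shown with these bases in capitals, at position 373 of 745 in CHAC1 (plus strand, chr15:40956136-40956165, GRCh38) and at position 511 of 869 in TRIB3 (plus strand, chr20:397190-397219).
CHAC1: ctcgatcctctGCTCACTcagcccagccat
TRIB3: acccaagcccaGCTCACTctgggaactgtg

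Some of these genes overlap others, and no source used here gives the strand setting of the counting, so reads from overlapping antisense genes cannot be told apart. NUP62 on the opposite strand covers 21.2% of the exonic bases of ATF5, and NUP62 itself had a log2 fold change of -0.02 (adjusted p = 0.755). MARS1 and MBD6 on the opposite strand cover 27.2% and 4.44% of the exonic bases of DDIT3; MARS1 fell (log2 fold change -0.48) and MBD6 rose (0.66). DDIT4-AS1 covers 41.2% of DDIT4 and VLDLR-AS1 7.90% of VLDLR on the opposite strand, and another gene on the same strand covers 44.6% of ASNS. The count table holds no entry for these last 3, so their levels could not be examined. No gene in GENCODE 29 shares exonic bases with ATF4, ATF3, TRIB3, CHAC1 or SESN2.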

How the data were processed

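Total RNA was sequenced from 3 siCTRL and 3 siRNA-1 cultures, with NEBNext Ultra libraries per the labels' protocols. The authors deposited raw counts per Ensembl gene, made with HTSeq per the labels. The submitters' processing notes list the hg38 build and, besides HTSeq, the tools STAR, Trimmomatic and kallisto, none with a version. For annotation, strand setting and filters, the sources used here give nothing. All 20042 identifiers matched a symbol. Genes were kept by filterByExpr of edgeR 4.0.16 in R 4.3.3 (minimum count 10, minimum total 15), which left 12440 genes. The counts were scaled by TMM and tested two-sided between the groups, with no other term, by edgeR's quasi-likelihood method; p-values were adjusted after Benjamini and Hochberg across the 12440 genes (threshold 0.05). The SE was derived from the fold change and F. RPKM used merged exon lengths of GENCODE 29. Intervals and floors (3 counts) cover counting error only. Only the edgeR fit was tested on simulated counts. In these far fewer genes changed than were called here, and no control library stood apart, so that test does not cover those features.

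The members and lists were chosen with earlier results of these data known. Named genes were the 10 members, the eIF2 kinases, eIF2 phosphatase subunits and paralogs whatever their result, the 3 genes with the smallest p of each other list, and the 5 nearest profiles (mean log2 CPM of at least 1) to ATF4 and ASNS. Others were named after their values were seen. One paralog is not reported here. Alternatives were size factors of DESeq2 1.42.0 and its Wald test, library size only, no filter, a minimum mean of 100 counts, limma-voom (limma 3.58.1), a replicate block, leaving out each library and a threshold of 0.01.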

Additional observations from a re-analysis of the deposited data

How the results depend on the processing

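Under all 14 alternatives, 7 of the 10 genes fell and 1 rose, as with all libraries. Of 140 values of single genes, 136 kept their direction and side of the threshold, and the other 4 were those of DDIT3, which did not pass in any setting. Its log2 fold change was -0.00073 with DESeq2 size factors, -0.030 at a mean of at least 100 counts and between -0.12 and 0.061 with 1 library left out. With 1 library left out, PPP1R15A ranged from -0.14 (without siCTRL 2) to 0.16 and CHAC2 from -0.11 to 0.026. With 1 library left out, 48 to 54 of the other genes around ATF4 fell and 17 to 22 rose. Over all tested genes, 3413 to 4306 fell and 3424 to 4329 rose in the same fits. Scaling moved the median log2 fold change of all genes to at most 0.043. The replicate numbers showed no clear pairing of the libraries: deviations from the group means correlated at 0.15, -0.084 and -0.14 for equal numbers. For unequal numbers the correlations ran from -0.20 to 0.22. With 3 libraries a group, such values cannot exclude a pairing. With the replicate number as a block, 7535 genes changed against 7772, and the log2 ratio of ATF5 to ATF4 differed by 1.81 (exact sign-flip test, p = 0.25, the smallest it allows). At 112 counts per library, as in CHAC1, depth limits small differences. With 3 libraries a group, no exact test over samples can reach 0.05.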
